A study of Mus musculus with 5 samples.

Results

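The smooth muscle contractile genes described here are 10 named genes of the actin filament and its partners: Acta2, Actg2, Tagln, Cnn1, Myl9, Tpm1, Tpm2, Cald1, Lmod1 and Des. They were listed by name, but with earlier results of these data known. Each was measured by 1 probe set that carries its symbol alone, so that all 10 were found among 19938 genes measured. Expression was measured in total RNA of mouse cells on 5 arrays, 1 for each group. The groups were 2i embryonic stem cells (2i ESCs, number 15 in the sample title), S ESCs (number 36), 4n 2i mouse embryonic fibroblasts (4n 2i MEFs, number 2), 2n 2i MEFs (number 15) and control MEFs (number 4). In every group the genotype was that of F1 offspring of 129X1/SvJ crossed to MSM/Ms. The labels do not spell out 2i, S, 2n or 4n, give no age, treatment or passage, and do not say whether a sample was 1 culture or a pool. 2i commonly names a medium with inhibitors of the kinases MEK and GSK3. The comparisons made were ESC against MEF arrays, 2i against S ESCs, each kind of 2i MEFs against control MEFs, and 4n against 2n 2i MEFs.

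In smooth muscle, actin filaments are pulled by myosin whose regulatory light chain is phosphorylated, while tropomyosin, caldesmon and calponin lie along the filament and restrain it. Many of these genes are switched on by serum response factor (SRF) with its partners myocardin and the myocardin-related factors, which bind the CArG box, and by TGF-beta. The same genes are active in myofibroblasts and in fibroblasts spread on a stiff culture surface, so they mark a contractile cytoskeleton and not smooth muscle alone.

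The arrays matched their labelled cell types. On both ESC arrays all 11 pluripotency markers were at or above the floor, and 0 of 11 were on any MEF array, where the floor is the median of the array's gene-named probe sets (between 217.9 and 240.1 intensity units). Of 21 fibroblast markers, 21, 21 and 20 reached it on the 4n 2i, 2n 2i and control MEF arrays. Values below the floor hold an unknown part of background. Since each group had a single array, precision is limited by the number of arrays, and differences between single arrays are given as folds without a test. The labels do not say that samples came from separate cultures, so the p-values below measure only the spread between these arrays. Nor can fewer cells of a type and less RNA per cell be told apart in such samples.

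All the contractile genes but Des were lower in ESCs than in MEFs. By limma, calling a gene at 2-fold or more when its adjusted p was under 0.05, 9 of 10 were lower in ESCs and none was higher. Among all 11827 genes tested, 16.3% were called lower and 16.7% higher. With no floor the count was again 9 of 10, against 9.91% of 19938 genes called lower. The 10 genes had a median log2 difference of -3.58, while the median over all genes tested was 0.06. For 9 of the 10, every ESC value lay below every MEF value, and Des overlapped.

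**Figure D1:**
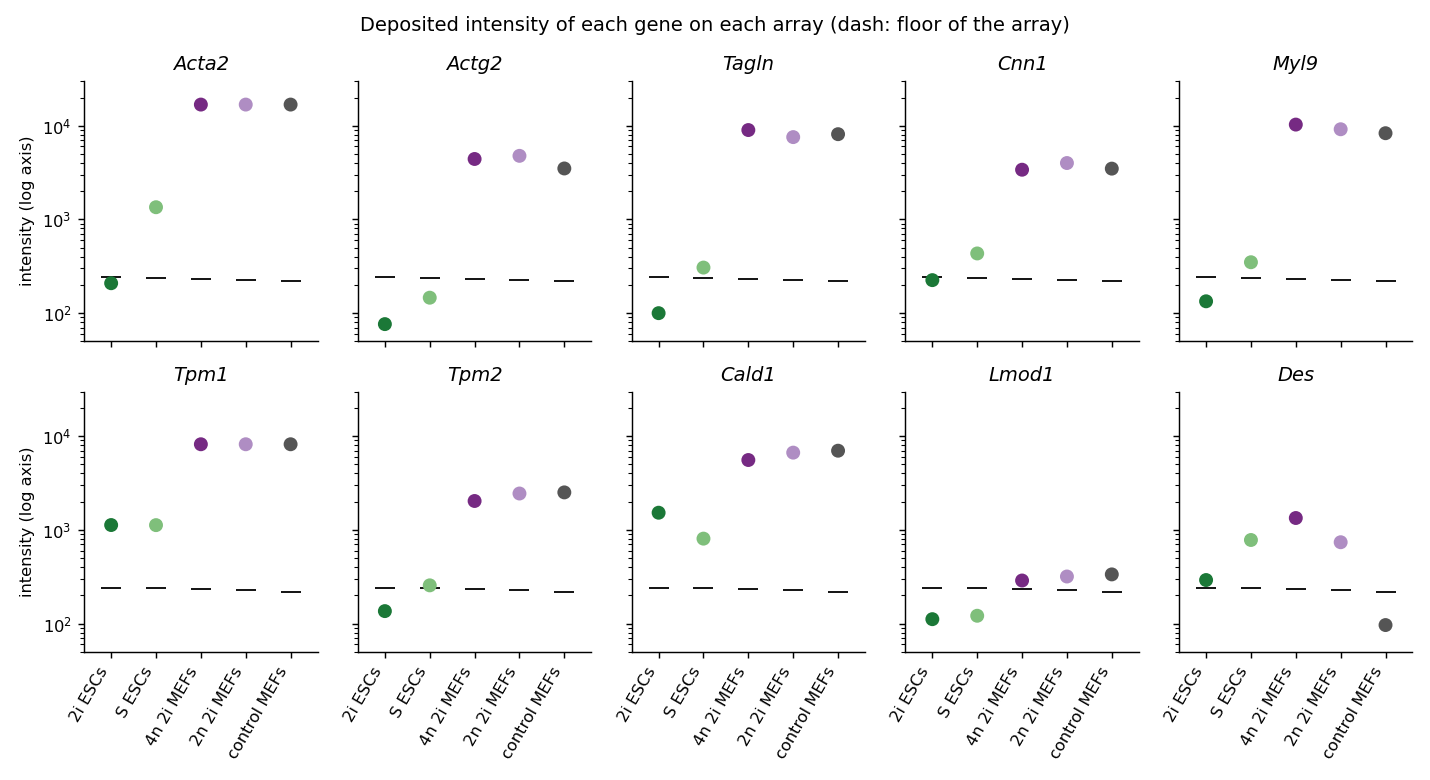
Deposited intensity (log axis) of each contractile gene on the 5 arrays, 1 point per array, with a dash at each array's floor. Acta2 stood at 16818 units on each MEF array against 1348 or less on the ESC arrays, while Des was lowest on the control MEF array, at 96.3 units.

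The actins form the filament itself. Acta2 (Entrez Gene 11475; chromosome 19, 34240336 to 34255585, GRCm38.p6) encodes the vascular smooth muscle actin. It had 208 units on the 2i ESC array and 1348 on the S ESC array, against 16818 units on each of the 4n 2i, 2n 2i and control MEF arrays. The ESC arrays thus lay far apart and the deposited MEF values were identical. Its log2 level averaged 9.05 ± 1.90 in ESCs (SD, n = 2) and 14.04 ± 0.00 in MEFs (SD, n = 3). In limma it was 31.7-fold lower in ESCs (adjusted p = 0.00783), a fold that depends on background because its 2i ESC value lay below the floor. Actg2 (Entrez Gene 11468; chromosome 6, 83512909 to 83536251), the enteric smooth muscle actin, had 76.2 and 145.8 units on the 2i and S ESC arrays. It had 4414, 4769 and 3496 units on the 4n 2i, 2n 2i and control MEF arrays. Both ESC values lay below the floor, and the gene was 39.4-fold lower in ESCs (adjusted p = 0.000608 in limma). The actins are near-identical paralogues, and whether a probe set also binds a paralogue's RNA was not tested.

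Myl9 encodes the regulatory light chain of smooth muscle myosin, and Tagln encodes transgelin, an actin-binding protein used as an early smooth muscle marker. Myl9 (Entrez Gene 98932; chromosome 2, 156775408 to 156781657) had 133.5 and 348.6 units on the 2i and S ESC arrays and 10282, 9168 and 8319 units on the 4n 2i, 2n 2i and control MEF arrays. Its log2 level averaged 7.76 ± 0.97 in ESCs (SD, n = 2) and 13.17 ± 0.15 in MEFs (SD, n = 3). In limma it was 42.5-fold lower in ESCs (adjusted p = 0.00116), a fold that depends on background because its 2i ESC value lay below the floor. Tagln (Entrez Gene 21345; chromosome 9, 45929628 to 45936058), whose 2i ESC value lay below the floor, had values of 99.7 and 305.8 units on the 2i and S ESC arrays, against 8991, 7559 and 8122 units on the 4n 2i, 2n 2i and control MEF arrays. It was 46.7-fold lower in ESCs, a fold that depends on background (adjusted p = 0.00154 in limma).

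The proteins that restrain the filament differed less. Cnn1 (Entrez Gene 12797; chromosome 9, 22099221 to 22109221), which encodes calponin 1, had 224.5 and 432.7 units in 2i and S ESCs and between 3390.3 and 3996 units in MEFs. It was 11.6-fold lower in ESCs (adjusted p = 0.00138 in limma). Tpm2 (Entrez Gene 22004; chromosome 4, 43513726 to 43523583), beta-tropomyosin, had 135.7 and 255.6 units in 2i and S ESCs and between 2034 and 2513 units in MEFs, 12.4-fold lower in ESCs (adjusted p = 0.00126 in limma). Of the ESC values, the S value was the higher one for both genes, and both were tightly grouped on the MEF arrays. Their 2i ESC values lay below the floor, so both folds depend on background.

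Tpm1 and Cald1, by contrast, stood well above the floor on both ESC arrays. Tpm1 (Entrez Gene 22003; chromosome 9, 67022590 to 67049672), alpha-tropomyosin, had 1126 and 1124 units in 2i and S ESCs, against an identical 8206 units on all 3 MEF arrays. It was 7.29-fold lower in ESCs (adjusted p = 0.000174 in limma). Cald1 (Entrez Gene 109624; chromosome 6, 34598495 to 34775469), caldesmon, had 1525 and 806.1 units in 2i and S ESCs and 5569, 6679 and 7003 units in 4n 2i, 2n 2i and control MEFs, 5.76-fold lower in ESCs (adjusted p = 0.00337 in limma). Both genes also make non-muscle isoforms, which 1 probe set per gene cannot separate here.

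Lmod1 (Entrez Gene 93689; chromosome 1, 135324813 to 135368065), leiomodin 1, which nucleates actin filaments in smooth muscle, was dim throughout. It had 111.3 and 121.0 units in 2i and S ESCs, both below the floor, and 287.9, 317.7 and 334.6 units in 4n 2i, 2n 2i and control MEFs. It was 2.68-fold lower in ESCs (adjusted p = 0.00101 in limma), a fold that depends on the background in the ESC values.

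Des (Entrez Gene 13346; chromosome 1, 75360292 to 75368579), desmin, the intermediate filament of muscle cells, did not follow the others. It had 291.4 and 779.7 units in 2i and S ESCs, against 1339, 737.9 and 96.3 units in 4n 2i, 2n 2i and control MEFs. The ESC and MEF values overlapped, with the 4n 2i MEF array highest, the S ESC and 2n 2i MEF arrays close together, and the control MEF array lowest. The log2 difference between ESCs and MEFs was 0.06 ± 1.28 (SE), with a 95% interval from -3.36 to 3.48 and an adjusted p of 0.972 in limma. Its SD over the MEF arrays was 1.98 on the log2 scale, against 0.23 or less for each of the other 9 genes.

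**Figure D2:**
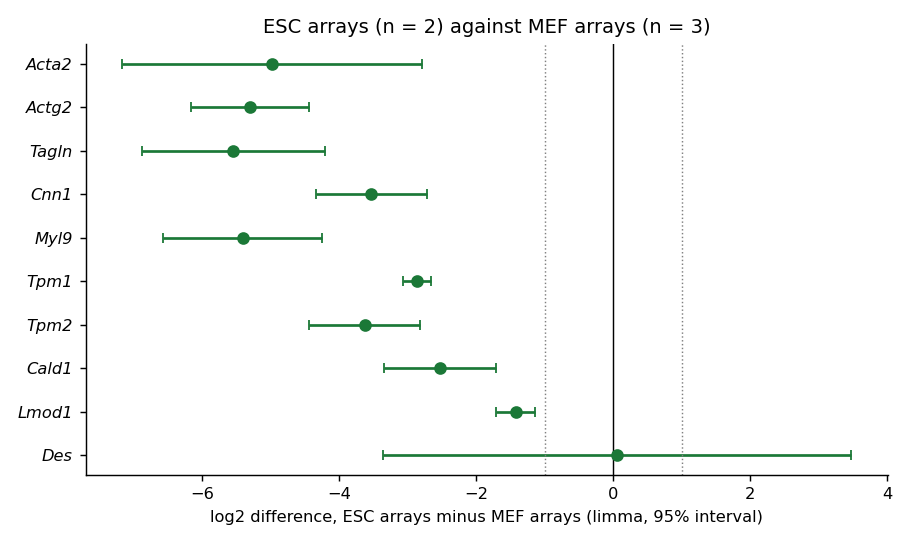
Log2 difference of each contractile gene, ESC arrays minus MEF arrays, with the 95% interval from limma (points and bars) and dotted lines at 2-fold. The intervals of 9 genes lie below 0, and that of Des runs from -3.36 to 3.48.

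For these differences, Acta2 and Tpm1 contributed no measured spread between MEF arrays, because the 3 deposited values were the same, as they were for 12.9% of all genes tested. Leaving out every gene with equal values on at least 2 MEF arrays, an alternative chosen after seeing the data, 7 of the 8 contractile genes left were called lower. Among all 7897 genes left, 1590 were called lower. Single ESC arrays moved the size of some differences: the log2 difference was -6.33 for Acta2, -6.35 for Tagln and -6.10 for Myl9 without the S ESC array, and -3.64, -4.74 and -4.72 without the 2i ESC array.

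Promoter sequences of Acta2 and Myl9 are shown because they are the windows among these genes that hold CArG-type elements, the binding sites of SRF. RefSeq promoter windows (GRCm38.p6, 250 bases before to 50 after a start site) matched 8 of the 10 genes by symbol, with 9 windows in all, and none was matched for Tagln or Actg2. Capitals mark a CArG box or its variant with 1 G or C in the core. The Acta2 window is chr19:34255324-34255623 on the minus strand and the Myl9 window chr2:156775214-156775513 on the plus strand.
Acta2: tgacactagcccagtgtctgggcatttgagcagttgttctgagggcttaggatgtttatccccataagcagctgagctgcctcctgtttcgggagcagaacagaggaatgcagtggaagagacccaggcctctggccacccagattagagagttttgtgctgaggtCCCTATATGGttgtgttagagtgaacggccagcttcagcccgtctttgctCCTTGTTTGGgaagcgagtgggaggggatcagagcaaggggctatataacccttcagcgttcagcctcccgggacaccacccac
Myl9: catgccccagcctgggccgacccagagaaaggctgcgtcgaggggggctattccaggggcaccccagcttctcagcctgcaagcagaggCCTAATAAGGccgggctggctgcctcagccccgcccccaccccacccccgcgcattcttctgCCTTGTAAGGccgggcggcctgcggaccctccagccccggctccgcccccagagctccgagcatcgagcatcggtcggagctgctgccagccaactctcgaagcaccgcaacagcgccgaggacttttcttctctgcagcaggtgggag

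Counted from the window's start site, with -1 the last base before it, Acta2 had variants from -84 to -75 and from -34 to -25. Myl9 had a full CArG box from -161 to -152 and a variant from -99 to -90. A full CArG box on either strand was thus present for 1 of 8 genes, against 1.63% of 32851 windows in the table, and a variant for 2 of 8, against 8.50%. The letters CATTCC, the core of the site bound by TEAD factors, were present on the minus strand for Acta2, Tpm1, Lmod1 and Cald1, 4 of 8 genes against 14.7% of windows on either strand. TATAAA was present for 1 of 8, Cald1, against 13.6%. Both strands were searched, no CArG match overlapped a CATTCC or TATAAA match, and a match in a window describes its letters only.

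Other genes of the contractile apparatus and its adhesions were also mostly lower in ESCs. Of 30 tested partner genes, 18 were lower, 2 higher and 10 not called by limma, with a median log2 difference of -1.51. For this and the lists that follow, the shares over all genes tested were 16.3% lower and 16.7% higher, with a median of 0.06. Some of the lower partner genes passed the floor through the MEF arrays alone, so their count is a description only. With no floor, 15 partner genes were lower and 1 higher, against 1976 and 2114 of 19938 genes. The caveolar protein gene Cav1 was lower by a log2 difference of -5.38, with 85.1 and 275.5 units in 2i and S ESCs against 4782, 6712 and 8229.9 units in 4n 2i, 2n 2i and control MEFs. Lower calls also included the LIM domain genes Fhl2 (-3.98) and Lpp (-3.84), Filip1l (-2.60), the fibronectin receptor subunit Itga5 (-1.89) and the cyclase-associated protein gene Cap2 (-1.89). The higher calls were Csrp2 (log2 1.40), a LIM protein of smooth muscle, and the small heat shock protein gene Hspb1 (1.14), a count of 2 that became 0 without the 2i ESC array and 1 without the S ESC or the 2n 2i MEF array. Myh11, the smooth muscle myosin heavy chain and the usual marker of the mature cell, was named after its values were seen. It had 122.3 and 130.9 units in ESCs, both below the floor, and 403.0, 477.3 and 511.9 units in 4n 2i, 2n 2i and control MEFs, a log2 difference of -1.86 (adjusted p = 0.000906 in limma).

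Paralogues and non-muscle isoforms of the same protein families were called in part. Of 18 tested, 8 were lower in ESCs, none was higher and 10 were not called, with a median log2 difference of -1.002. The lower ones included calponin 2, Cnn2 (-3.14), the non-muscle tropomyosin gene Tpm4 (-1.97), skeletal actin Acta1 (-1.97), non-muscle myosin Myh9 (-1.49), the light chain gene Myl12a (-1.42) and vimentin, Vim (-1.31). Relatives that were not called, named after their values were seen, were Cnn3 (-0.26, adjusted p = 0.0567 in limma), Tpm3 (-0.13, adjusted p = 0.561 in limma) and beta-actin, Actb (-0.30, adjusted p = 0.0345 in limma, under 2-fold). The count of 8 lower genes became 5 without the 2i ESC array, and 1 relative was called higher when the 2i or the S ESC array was left out.

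Among SRF, myocardin and TGF-beta regulators, 15 of 29 tested genes were lower in ESCs, 2 higher and 12 not called, with a median log2 difference of -1.48. The ligands Tgfb3 (-5.69), Tgfb1 (-3.14) and Tgfb2 (-3.14), the receptors Tgfbr2 (-3.48) and Tgfbr3 (-2.63) and the mesenchymal factor Prrx1 (-5.44) had the largest differences. Neither ESC value of Tgfb3 or Tgfb2 reached the floor. Tgfb1 and Prrx1 missed it in 2i ESCs, and Tgfbr2 and Tgfbr3 in S ESCs, so all these differences depend on background. Some lower regulators passed the floor through MEF arrays alone, so their count is a description only. With no floor, 15 regulators were lower and 2 higher, against 1976 and 2114 of 19938 genes. The higher ones were Klf5 (2.46), a zinc finger factor of both stem cells and smooth muscle, and the receptor gene Notch3 (1.13), of which 1 was called without the S ESC array. Of the SRF complex, named after the values were seen, Srf itself was not called (-0.66, adjusted p = 0.0846 in limma). Its cofactors Mrtfa (-1.46) and Mrtfb (-1.57) were lower, as was Myocd (-1.59), which reached the floor on the control MEF array only.

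Genes that respond to these pathways were lower or not called. Of 11 TGF-beta response genes 7 were lower in ESCs and none higher (median log2 difference -2.23), among them the collagen gene Col1a1 (-4.81) and the matricellular genes Ccn1 (-3.59) and Ccn2 (-2.64). Of 11 immediate SRF targets 6 were lower and none higher (median -1.20), among them the zinc finger factor gene Egr1 (-3.18). With no floor, 6 TGF-beta response genes and 6 immediate SRF targets were called lower, against 9.91% of 19938 genes. Ccn1 is in both of these lists. Other genes are shared with the lists above, such as Vcl and Flna with the partner genes and Srf and Smad7 with the regulators. The lists are thus not separate from each other.

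**Figure D3:**
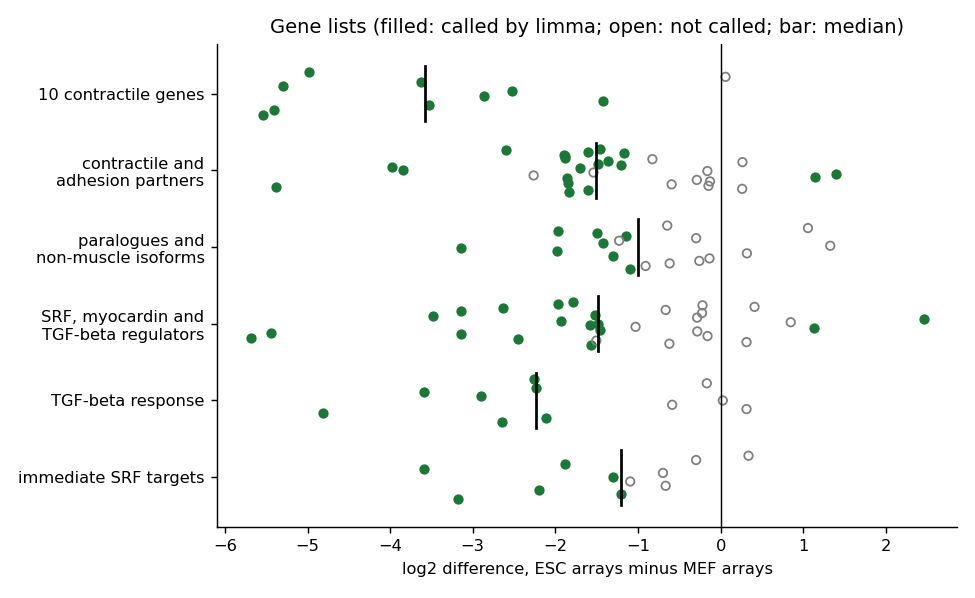
Log2 difference, ESC arrays minus MEF arrays, of each tested gene (points; filled where limma called it) by gene list, with a bar at the list's median. The 10 contractile genes have a median of -3.58 and the other lists between -2.23 and -1.002.

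Between the ESC groups, contractile genes tended to be lower on the 2i array. By any amount, 8 of the 10 were lower on the 2i than on the S array, where 44.2% of all 19938 genes were lower with no floor applied. Past the floor, 4 of 8 genes were lower in 2i ESCs by 2-fold or more and none was higher, against 2.54% of 10493 genes lower and 2.78% higher. Of these 8, 5 passed the floor through the S array alone, so that this count is a description only. With no floor, 4 of the 10 were lower by 2-fold or more, against 1.54% of all genes.

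The genes past 2-fold were Acta2 (6.45-fold), Tagln (3.05-fold), Des (2.67-fold) and Myl9 (2.60-fold). Cnn1, Actg2 and Tpm2 had folds of 1.92, 1.90 and 1.88 in the same direction. Lmod1 was 1.09-fold lower, and Tpm1 had a log2 difference of 0.00. Cald1 alone ran the other way beyond these, 1.89-fold higher on the 2i array. Only for Des, Tpm1 and Cald1 did both ESC values reach the floor, so the remaining folds depend on background.

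The excess on the S array was small beside the level in fibroblasts. As a share of the control MEF value of the same probe set, the S minus 2i difference was 6.78% for Acta2, 5.98% for Cnn1, 4.77% for Tpm2, 2.91% for Lmod1, 2.59% for Myl9, 2.54% for Tagln and 1.99% for Actg2. It was -0.03% for Tpm1 and -10.3% for Cald1. For Des it was 507%, since the S ESC value exceeded that of control MEFs.

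Fibroblast markers moved beside these genes. Of the 21 markers, 9 reached the floor on the 2i and 14 on the S ESC array. By any amount, 18 of the 21 were higher on the S array, as were 44.2% of all 19938 genes with no floor applied. Some of these differences were small, such as 1.01-fold for Fap and 1.07-fold for Pdgfrb. None was listed at 0. Past the floor, 4 of 14 were lower in 2i ESCs by 2-fold or more, namely Dcn (log2 difference -1.91), Prrx1 (-1.83), Cdh11 (-1.62) and Loxl1 (-1.08), against 2.54% of all genes. All 4 passed the floor through the S array alone, where they are high, so their count is a description only. The summed level of the list went the other way, at 24932 units on the 2i and 23905 on the S array, a sum in which Sparc was 9133 units on the 2i and 5904 on the S array. As a share of the control MEF value, the S minus 2i difference of these markers ran from -20.0% to 6.53%, with a median of 1.07%. The part of fibroblast RNA in the S ESC values was not tested. Of 10 immediate SRF targets past the floor, 3 were lower on the 2i array by 2-fold or more, Egr1 (-2.34), Fosb (-1.29) and Ier2 (-1.04), against 2.54% of all genes. Egr1 and Fosb, like Fos and Junb, passed through the S array alone, so this count too is a description only.

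**Figure D4:**
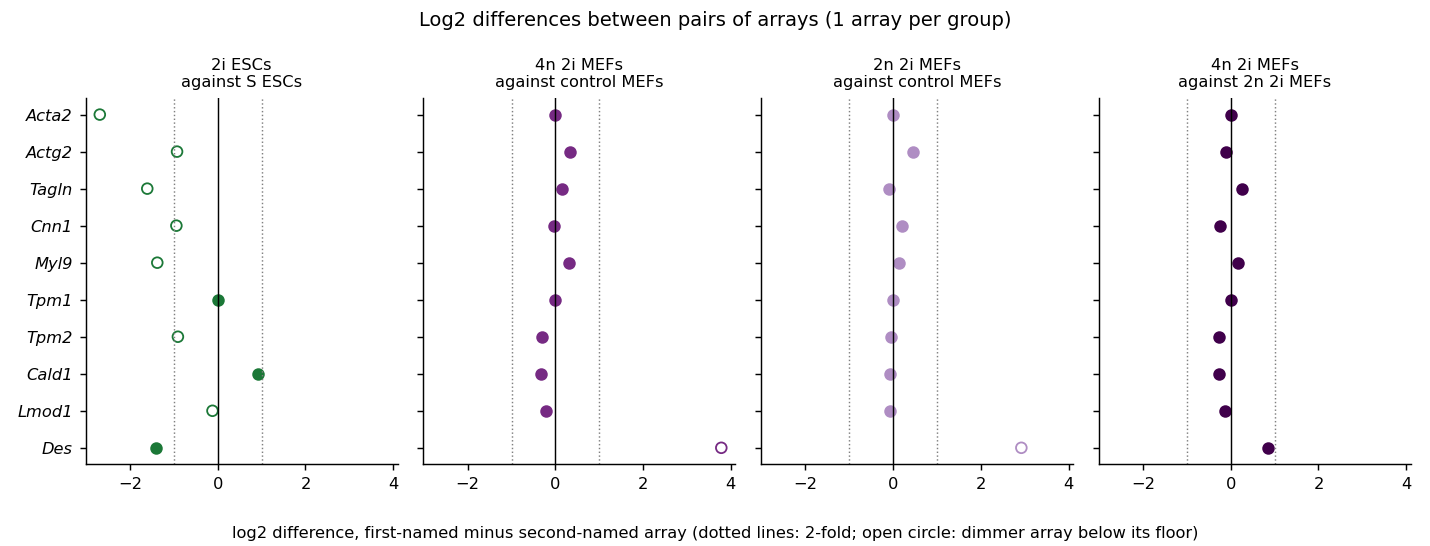
Log2 difference of each contractile gene between pairs of arrays, first-named minus second-named, with dotted lines at 2-fold and open circles where the dimmer array lay below its floor. Acta2 stands at -2.69 for 2i against S ESCs, and Des at 3.78 and 2.92 for 4n and 2n 2i MEFs against control MEFs, while the other genes of the MEF pairs differ by up to 1.36-fold.

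Among MEFs the contractile genes were nearly level, again with Des as the exception. On the 4n array 1 of 10 was at least 2-fold higher than on the control array, where 5.26% of all genes were, and none was lower, where 3.44% were. On the 2n array 1 of 10 was at least 2-fold higher, where 1.48% of all genes were, and none was lower, where 0.434% were. In both cases this was Des, and both comparisons share the control array. Des was 13.8-fold higher on the 4n and 7.59-fold higher on the 2n array than on the control array. The control value of 96.3 units lay below the floor of 217.9, so the gene passed through the 2i MEF arrays alone and its fold depends on background. Between 4n and 2n 2i MEFs none of the 10 differed by 2-fold, where 3.34% of all genes were higher and 2.36% lower, and Des was 1.81-fold higher on the 4n array.

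The other 9 genes varied little among MEFs. Actg2 differed most, 1.26-fold higher on the 4n and 1.36-fold higher on the 2n array than on the control array. Myl9 was 1.24-fold and 1.10-fold higher on the 4n and 2n arrays. Cald1 and Tpm2 were 1.26-fold and 1.24-fold lower on the 4n array, and 1.05-fold and 1.03-fold lower on the 2n array. Acta2 and Tpm1 had the same deposited value on all 3 arrays, and 12.3% of genes compared between the 4n and control arrays were likewise identical. An identical value is a property of the deposited table and is not read as measured equality.

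Partner genes went both ways on the 4n array. Of 28 past the floor against control MEFs, 4 were at least 2-fold higher on the 4n array and 3 lower, against 5.26% and 3.44% of all genes, with a median log2 difference of -0.23. The integrin gene Itga8 had 1726 units on the 4n array, against 297.3 on the 2n and 331.2 on the control array. Mylk, the kinase that phosphorylates the myosin light chain, had 741.5 units on the 4n array, against 305.6 on the 2n and 213.4 on the control array. In the other direction, Kcnmb1, a potassium channel subunit of smooth muscle, had 121.3 units on the 4n array, against 411.3 on the 2n and 450.8 on the control array. Sncg, a synuclein gene also found in smooth muscle, had 193.3 units on the 4n array, against 695.0 on the 2n and 826.2 on the control array. The 4n values of Kcnmb1 and Sncg lay below the floor, as did the control values of Mylk and of Aoc3, a partner also higher on the 4n array. Their folds thus depend on background. Each of these genes passed the floor through its brighter array alone, so the counts of higher and lower partners are descriptions only. Of the 10 contractile genes, 9 stayed within 2-fold on the 4n array and Des did not. On the 2n array 1 of 28 partners was at least 2-fold higher than in control MEFs, Csrp2 (log2 1.01), against 1.48% of all genes, and none was lower.

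Of regulators, Hey1 (log2 2.18 on the 4n and 1.20 on the 2n array, each minus control), a transcription factor of the Notch pathway, and the endoderm and smooth muscle factor Gata6 (1.89 and 1.07) were past 2-fold on both 2i MEF arrays. Tgfb2 was past it on the 2n array (1.18), and Heyl (1.45), Klf4 (-1.39), Tbx18 (-1.22) and Smad7 (-1.14) on the 4n array. Thus 3 of 29 regulators were higher and 3 lower on the 4n array, against 5.26% and 3.44% of all genes. On the 2n array 3 of 29 were higher and none lower, against 1.48% and 0.434%. Hey1 had 186.6 units on the control array, below the floor, so it passed through the 2i MEF arrays alone and its folds depend on background. Of 11 TGF-beta response genes, 1 was at least 2-fold higher and 1 lower on the 4n array, against 5.26% and 3.44% of all genes. On the 2n array 1 was higher and none lower, against 1.48% and 0.434%. The higher gene was Tgfbi on both, by a log2 difference of 1.85 on the 4n and 1.97 on the 2n array, and the lower one Smad7. The median log2 difference of the list was 0 on the 4n and -0.02 on the 2n array.

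Other cell types' markers give the setting for Des. Mesothelial markers were higher on both 2i MEF arrays than on the control array, 6 of 9 past the floor by at least 2-fold on the 4n and 5 of 8 on the 2n array, against 5.26% and 1.48% of all genes. Upk3b, Lrrn4, Msln, Wt1 and Gpm6a lay below the floor on the control array and passed through a 2i MEF array alone (Gpm6a through the 4n array), so these counts are descriptions only. The summed level of all 11 was 10256 units on the 4n and 6432 on the 2n array, against 2636 on the control array. Upk3b had 2387 and 1195 units on the 4n and 2n arrays, against 160.0 on the control array. Skeletal muscle markers had 2 of 20 at the floor on each MEF array (Tnnt3 and Acta1), and their summed level lay between 3006 and 3430 units. Myod1, Myf5 and Myog were below the floor on all 5 arrays. Of 15 cardiac markers 6 reached the floor on each MEF array, with sums of 3785, 3162 and 3469 units on the 4n 2i, 2n 2i and control arrays. Of 11 pericyte markers, 8 reached it on the 4n array, and 5 on the 2n and 5 on the control array, with sums of 14376, 14641 and 13551 units on the 4n 2i, 2n 2i and control arrays. Past the floor, 4 of 8 pericyte markers were at least 2-fold higher on the 4n than on the control array and 1 was lower. The shares of all genes were 5.26% and 3.44%. Rgs5, Kcnj8 and Ndufa4l2 passed through the 4n array alone, so these counts are descriptions only. Rgs5 had 452.9 units on the 4n array, against 126.2 on the 2n and 100.5 on the control array, both below the floor. Cspg4, the lower one, had 863 units on the 4n array, against 1629 on the 2n and 2253 on the control array. Of macrophage markers, 10 of 10 past the floor were at least 2-fold higher on the 4n than on the control array, against 5.26% of all genes. On the control array only 2 of the list, Cd68 and Lyz2, reached the floor. The others passed through the 4n array alone, so this count is a description only. The summed level of all 13 was 22461 units on the 4n array, against 1871 on the 2n and 2422 on the control array. No marker of these lists was listed at 0. The part of any such cells in the level of Des was not tested.

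**Figure D5:**
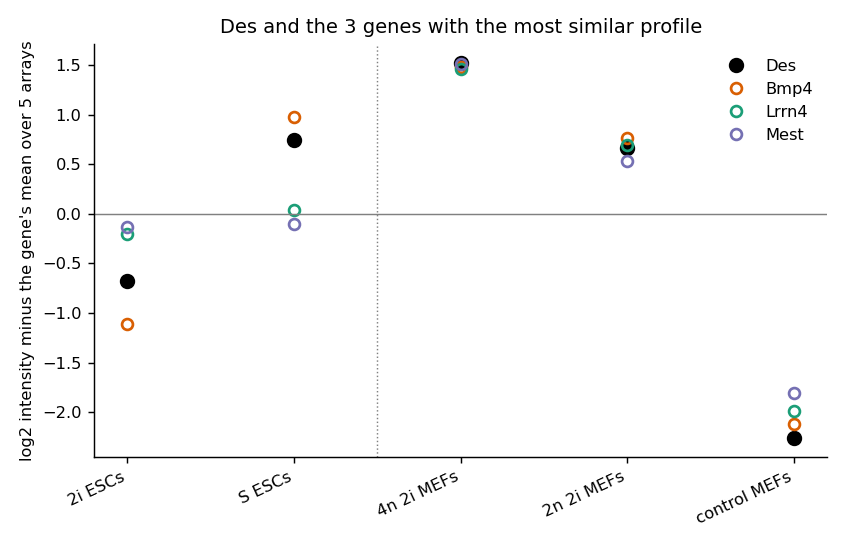
Log2 intensity of Des (filled) and of Bmp4, Lrrn4 and Mest (open), each minus its own mean over the 5 arrays, 1 point per array. All 4 genes are highest on the 4n 2i MEF array and lowest on the control MEF array.

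Profiles over the 5 arrays were compared by the root mean square difference of log2 levels, each gene centred on its own mean, among 11398 named genes past the floor. The genes most like Des were Bmp4, encoding a bone morphogenetic protein (0.24), Lrrn4, a mesothelial marker (0.40), and the imprinted gene Mest (0.50). The contractile gene nearest to Des was Lmod1, at 1.56. Myl9 and Tagln were each other's nearest contractile gene (0.13), and Actg2 was 0.19 from Myl9. The gene nearest to both Tagln (0.09) and Myl9 (0.12) was Thbs2, a matricellular gene, and S100a6 was nearest to Acta2 (0.27). Cnn1 and Tpm2 were 0.11 apart, with the peptide-processing gene Cpe nearest to Cnn1 (0.03) and the lamin gene Lmna nearest to Tpm2 (0.09). The nearest gene was Cacna1c, the calcium channel of smooth and cardiac muscle, for Tpm1 (0.02), Hoxc10 for Cald1 (0.09) and Sri for Lmod1 (0.03). These likenesses rest on 5 arrays of 1 sample each and describe these arrays only. Cacna1c had 71.6 and 68.8 units in 2i and S ESCs, and Hoxc10 had 142.5 and 86.1. All of these lay below the floor, so the nearness of Cacna1c and Hoxc10 depends on background.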

How the data were processed

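Column-purified total RNA of each sample was labelled with a whole-transcript kit and hybridised, per the labels' protocols. Linear intensity values of 28853 probe sets on 5 arrays were deposited in a single table. Background correction, summarisation and normalization of these intensities are not given in the sources used here. All comparisons used log2(value + 1). The 21789 probe sets with 1 symbol were used, while 1621 had several and 5443 had none. Symbols were updated by Entrez Gene number through RefSeq (GRCm38.p6), which matched 21698. A gene's brightest probe set was used, and each of the 10 genes had 1.

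A gene was compared when its brightest array reached that array's floor. ESC arrays (2) were compared with MEF arrays (3) by limma (lmFit, eBayes, Benjamini-Hochberg over 11827 genes, adjusted p under 0.05 and 2-fold), which was tested on simulated data. There it called 54 of 100 genes changed by a log2 difference of 1.5 and 92 of 100 changed by -3. Of 11627 unchanged genes it called 3. A gene not called can therefore still differ. Pairs of arrays were compared by fold alone. The genes and lists were chosen with earlier results of these data known. Besides the 10 genes, up to 6 genes of a list past the threshold per comparison, and 3 most alike genes per member, could be named. Alternatives tried were other floors, quantile normalization, median centring, the mean of a gene's probe sets, a pseudocount of 16, a 3-fold or no fold threshold, a trend with robust prior, and leaving out each array. Python 3.11.15, pandas 2.3.3, R 4.3.3 and limma 3.58.1 were used.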

Additional observations from a re-analysis of the deposited data

Results flagged for a closer look

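Tagln and Cnn1 moved in opposite directions on the 4n and 2n 2i MEF arrays, each set against the shared control array, with 1 array per group and so no test of the difference. Tagln had log2 differences of 0.15 on the 4n and -0.10 on the 2n array, which are 0.25 apart. Cnn1 had -0.04 on the 4n and 0.20 on the 2n array, which are -0.24 apart. All of these values lie within 2-fold.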

How the results depend on the processing

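The number of contractile genes called lower in ESCs was 9 in the main analysis and between 7 and 9 under all 15 alternatives. It was 8 with a floor at the 75th percentile, where 9 of the genes were tested, against 1291 of 6626 genes called lower. With a threshold of 3-fold, which Lmod1 missed, it was 8, against 1135 of 11827 genes. It was 9 when any 1 MEF array was left out, against between 1666 of 11792 and 2007 of 11658 genes. For 9 genes, adjusted p values in limma ran from 0.000115 to 0.0302 over these alternatives. Des, not called under any alternative, had log2 differences from -1.06 without the control MEF array to 0.83 without the 4n 2i MEF array, and was below 0 also without the S ESC array (-0.65) and after median centring (-0.03) or quantile normalization (-0.002). For 2i against S ESCs, 4 genes past 2-fold became 1 with a floor at the 75th percentile, where 3 were tested and 82 of 5128 genes were lower. At 3-fold the count became 2 of 8, against 87 of 10493 genes lower. For 2n 2i against control MEFs, 1 gene became 0 with the floor at the 75th percentile, which Des missed. There 51 of 4969 genes were higher. Counts for the other pairs did not change. No paired analysis was possible because each group has 1 array. Signal over background limits Actg2 and Lmod1 on both ESC arrays, Acta2, Tagln, Cnn1, Myl9 and Tpm2 on the 2i ESC array, and Des on the control MEF array, where their values lay below the floor.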
